A study of Sus scrofa with 24 samples.

Results

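The matrix metalloproteinases (MMPs) and their tissue inhibitors (TIMPs) were followed through adipogenic culture of pig cells from 2 fat depots. The members were 10 listed genes, MMP1, MMP2, MMP3, MMP9, MMP11, MMP13, MMP14, TIMP1, TIMP2 and TIMP3. Their symbols were matched to the pig Ensembl gene IDs of the expression table, which found 8 of the 10 among 25462 genes. MMP3 and TIMP2 were not matched and are not analysed here. The members were chosen by their FPKM patterns over depots and days in these same libraries, so their levels and differences are given below as a description, without p-values.

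MMPs are zinc-dependent proteases that cut the proteins of the extracellular matrix. Most are made as inactive proenzymes, which other proteases open outside the cell or at its surface, and TIMPs bind the active enzymes and block them. In fat tissue, preadipocytes lie in a matrix rich in fibrillar collagen, and the matrix is rebuilt as the cells round up and fill with lipid.

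Expression was measured by RNA sequencing of polyadenylated RNA in 24 libraries of primary preadipocytes, which per the methods were taken from 3 Yorkshire piglets at 6 days of age. The cells came from the subcutaneous fat of the back (BF) or from the longissimus dorsi, a muscle of the back, for intramuscular fat (IMF), and were collected on days 0, 2, 4 and 8, which gives the 8 groups BF-0d to BF-8d and IMF-0d to IMF-8d with 3 replicates each. All cells were cultured with fetal bovine serum. Those collected after day 0 were induced with IBMX, dexamethasone and insulin until day 2, then held in insulin until day 4 and then in growth medium. Day 0 cells had not been induced, and there was no uninduced culture at the later days, so time in culture and induction cannot be told apart. The labels do not tie a replicate number to an animal, and no genotype or treatment other than depot and day separated the groups.

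Levels are given as FPKM, fragments scaled to transcript length and to the mapped fragments of a library. Such a value is divided by gene length, so that genes can be compared. FPKM values do not carry read counts, so the number of reads behind a value cannot be read from them, and the study's sequencing totals were not used here. Differences are on the scale of log2(FPKM + 1), with the standard error (SE) of a model shared by the 24 libraries, and are later minus earlier day or IMF minus BF. A gene is called when its limma adjusted p was under 0.01 and its absolute difference at least 1. All 8 members were among the 16135 genes tested.

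A pair of libraries stood apart from their groups. BF-2d replicate 3 lay at -17.2 on the first principal component, where the other BF-2d libraries lay at 26.5 and 27.2 and the BF-0d libraries between -37.7 and -34.2. BF-4d replicate 3 lay at 65.1, among the BF-8d libraries (62.6 to 65.5), with the other BF-4d libraries at 43.1 and 51.0. Replicates correlated at 0.962 to 0.976 in BF-2d, 0.965 to 0.991 in BF-4d, 0.969 to 0.988 in BF-8d, 0.993 to 0.994 in BF-0d and 0.987 to 0.994 in the IMF groups, across genes, which are not independent. Several member differences are also given without both libraries.

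The label of adipocyte was checked against 8 markers. LPL, lipoprotein lipase, was at 1.58 to 2.76 FPKM in BF-0d and 276 to 611 in BF-8d, and at 0.822 to 1.18 in IMF-0d and 93.7 to 141 in IMF-8d. PPARG, a master regulator of adipogenesis, was at 2.57 to 3.33 FPKM in BF-0d and 0.486 to 1.28 in BF-8d, and had means of 0.256 in IMF-0d, 0.854 in IMF-4d and 0.123 in IMF-8d. CEBPA, another such regulator, had its highest means in BF-2d (9.37 FPKM) and IMF-4d (5.89), and means of 2.26 and 2.35 in BF-0d and BF-8d and 1.75 and 1.76 in IMF-0d and IMF-8d. The means of FABP4 and CIDEC, both of lipid storage, were 2.02 and 0.579 FPKM in BF-0d, 3.47 and 0.678 in BF-8d, 0 and 0.264 in IMF-0d, and 0.404 and 0.582 in IMF-8d. ADIPOQ (adiponectin), PLIN1 (perilipin) and LEP (leptin), which mark mature fat cells, stayed at or below 0.230, 0.0773 and 0.0313 FPKM in every library. The summed level of 7 stromal markers, which include COL1A1, was 6757 to 7614 FPKM in BF-0d and 1947 to 2254 in BF-8d, and 7071 to 7582 in IMF-0d and 3282 to 3708 in IMF-8d. COL1A1 made up most of that sum on day 0, with means of 5753 FPKM in BF-0d, 845 in BF-8d, 6135 in IMF-0d and 2062 in IMF-8d. Of the other stromal markers, DCN and ENG had lower means in BF-8d than in BF-0d (497 against 1004 FPKM for DCN), while PDGFRA, PDGFRB, LUM and NT5E had higher means, such as 228 against 77.0 for PDGFRA. In IMF cells DCN, PDGFRA, PDGFRB and ENG had higher means on day 8 than on day 0, such as 226 against 60.1 for PDGFRA, and LUM and NT5E lower ones. CD14, a surface receptor of myeloid cells, was at 17.1 FPKM in BF-4d replicate 3 and at 2.10 to 10.7 in the other libraries, while PTPRC, which marks leukocytes, did not exceed 0.00835 and LYZ was listed at 0 throughout. The summed level of 8 immune markers was 5.50 to 6.92 FPKM in BF-0d, 3.24 to 5.31 in BF-2d, 3.20 to 19.0 in BF-4d and 8.15 to 13.3 in BF-8d. In IMF cells it was 6.83 to 7.75, 4.18 to 4.54, 4.48 to 5.80 and 8.94 to 11.2 on days 0, 2, 4 and 8, so that it was higher on day 8 than on day 4, as were MMP1 and TIMP1. Most of that step was CD14, with means of 3.23 and 7.74 FPKM, which was not called, while the means of AIF1 were 0.909 and 0.870. The summed level of 7 endothelial markers was 5.56 to 7.24 FPKM in BF-0d, 1.33 to 2.47 in the later BF groups and 3.45 to 5.73 in the IMF groups, and was mostly PECAM1, which was called lower from BF-0d to BF-2d and higher in IMF cells on day 8, while CDH5 and KDR, which define endothelium, did not exceed 0.0884 and 0.101 FPKM. The sum of 4 epithelial markers did not exceed 0.442 FPKM. Of 8 myogenic markers DES, desmin, alone reached a group mean of 1 FPKM, and MYOD1 and MYF5, which define muscle precursors, were listed at 0 in every library. The summed myogenic level was 29.7 to 45.4 FPKM in IMF-0d and 1.29 to 2.25 in IMF-8d, and 4.55 to 4.95 in BF-0d and 0.0775 to 0.133 in BF-8d. The part of other cell types in the differences given here was not tested. In bulk RNA, fewer cells of a type and less RNA per cell cannot be told apart.

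The 6 MMPs share the zinc-binding site of the family, in which 3 histidines hold the catalytic zinc. The coding sequence of this site is shown for each because it is what makes these genes 1 family, and because it shows how far their transcripts differ where the proteins are most alike. The sequences were read from the RefSeq annotation of Sscrofa11.1, the build the authors aligned to, and run 5′ to 3′ on the coding strand, with the 3 histidine codons in capitals.
MMP1: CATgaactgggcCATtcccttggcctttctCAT
MMP13: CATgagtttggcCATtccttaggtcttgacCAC
MMP2: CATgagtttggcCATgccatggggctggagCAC
MMP9: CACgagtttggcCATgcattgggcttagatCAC
MMP11: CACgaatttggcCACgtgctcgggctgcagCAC
MMP14: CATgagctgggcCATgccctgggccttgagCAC
Each stretch of 33 bases lay within 1 coding exon and occurred 1 time in its transcript. MMP2 and MMP14 were identical at 28 of the 33 bases, the most of the 15 pairs, and MMP1 and MMP11 at 19, the fewest. The collagenases MMP1 and MMP13 were identical at 23.

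MMP1 (ENSSSCG00000014985) lies on chr9:33411738-33420205 on the minus strand, with its zinc site in exon 5 of 10 at chr9:33417296-33417328. MMP13 (ENSSSCG00000014988) lies on the same strand at chr9:33549003-33616700, with the site in exon 5 of 10 at chr9:33557266-33557298. MMP2 (ENSSSCG00000002829) is at chr6:30059247-30087031 (site in exon 8 of 13), MMP9 (ENSSSCG00000007436) at chr17:48179690-48186782 (exon 8 of 13), MMP11 (ENSSSCG00000010071) at chr14:49907684-49917494 (exon 5 of 8) and MMP14 (ENSSSCG00000002039) at chr7:76174502-76185931 (exon 5 of 10). TIMP1 (ENSSSCG00000012277) is at chrX:42103251-42106289 and TIMP3 (ENSSSCG00000031866) at chr5:12185816-12242599. TIMP1 overlaps SYN1, TIMP3 overlaps SYN3 and MMP13 overlaps a long noncoding RNA, LOC110255426. Whether the authors' quantification used strand is not given in the sources used here, so reads of such overlaps may be shared.

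MMP1, the interstitial collagenase, which cuts fibrillar collagen, went from low levels to among the highest expressed genes in BF cells. It was at 1.31, 1.43 and 1.58 FPKM in BF-0d, where it ranked between 9957 and 10085 among the 25462 genes of its library. In BF-2d it was at 17.9, 26.9 and 1.34 FPKM, in BF-4d at 137, 327 and 3998, and in BF-8d at 3820, 4047 and 4982. On day 8 it ranked 3 to 5 and alone made up 1.19 to 1.51% of a library's FPKM. Both libraries that stood apart carried MMP1 values of a neighbouring day: BF-2d replicate 3 lay within the range of BF-0d, and BF-4d replicate 3 within that of BF-8d.

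In IMF cells MMP1 stayed low until day 4. It was at 3.53, 2.73 and 2.33 FPKM in IMF-0d, at 0.686, 1.19 and 0.822 in IMF-2d, and at 3.51, 2.93 and 4.85 in IMF-4d. In IMF-8d it was at 604, 408 and 333 FPKM, with ranks of 102 to 165. Every IMF-8d library was below every BF-8d library and above every earlier IMF library. The order of the group means was BF-8d, BF-4d, IMF-8d, BF-2d, IMF-4d, IMF-0d, BF-0d and IMF-2d, and the libraries of BF-8d and BF-4d, of BF-4d and IMF-8d, of BF-2d and IMF-4d and of IMF-4d and IMF-0d overlapped.

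The differences of MMP1 in BF cells were 2.14, 5.72 and 2.91 (SE 0.86 each) over the successive intervals, of which the second was called. The IMF differences were -1.02, 1.31 and 6.53, of which the last was called. Without BF-2d replicate 3 and BF-4d replicate 3 the BF differences became 3.24 (SE 0.29), 3.21 (SE 0.32) and 4.32 (SE 0.29) and all were called. The MMP1 difference between depots was 0.65, -2.51, -6.91 and -3.29 on days 0, 2, 4 and 8, and was called on days 4 and 8. Without both libraries it was -3.61 on day 2, which was then called, and -5.50 on day 4. The call on day 2 also appeared when either library alone was left out. The call from BF-2d to BF-4d was lost with the compared libraries fitted alone. The call on day 8 was lost when any 1 of the 6 libraries compared was left out, although the difference stayed between -3.68 and -3.10 under the alternatives run.

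**Figure D1:**
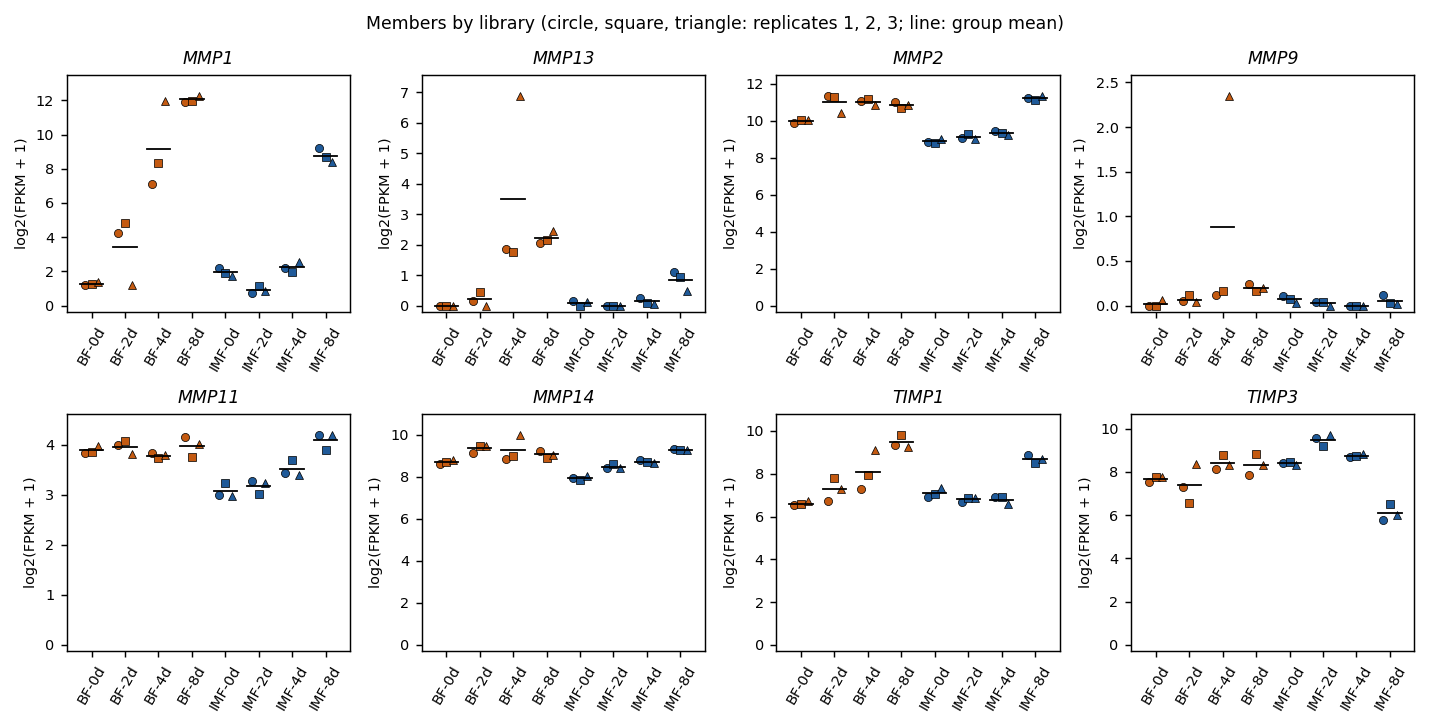
Expression of the 8 members as log2(FPKM + 1) on the vertical axis, by group on the horizontal axis (BF orange, IMF blue). Each point is a library, with circle, square and triangle for replicates 1, 2 and 3, and each line is a group mean. MMP1 reached 3820 to 4982 FPKM in BF-8d and 333 to 604 in IMF-8d, and the triangle of BF-4d stands far above the other BF-4d points for MMP1, MMP13 and MMP9.

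MMP13, collagenase 3, is a second enzyme that cuts fibrillar collagen. It was listed at 0 in all BF-0d libraries and at 0.121, 0.353 and 0 FPKM in BF-2d. In BF-4d it was at 2.62, 2.35 and 118 FPKM and in BF-8d at 3.18, 3.47 and 4.48. The value of 118 belonged to BF-4d replicate 3, and the mean of BF-4d, 41.0 ± 66.7 FPKM (SD, n = 3), rests on it. In IMF cells MMP13 was listed at 0 in IMF-2d, did not exceed 0.191 FPKM up to IMF-4d, and was at 1.15, 0.899 and 0.378 in IMF-8d.

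The difference of MMP13 in BF cells was 3.30 (SE 0.79) from day 2 to day 4, which was called, and 1.5 (SE 0.16) without the pair of libraries that stood apart, which was also called. Leaving out any 1 of the BF-2d libraries alone gave 3.20 to 3.42 and lost the call, which was also lost without a filter on low values and with the compared libraries fitted alone. From day 4 to day 8 it was -1.27 with all libraries and 0.43 without BF-4d replicate 3, so that the direction was set by that library. On day 4 the depots differed by -3.36, or by -1.67 without the pair, and both were called, but the call was lost with the compared libraries fitted alone. On day 8 they differed by -1.40, with all BF libraries above all IMF libraries, which was called only without BF-4d replicate 3, without the pair, or with the day 8 libraries fitted alone.

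Both collagenase genes lie in a cluster of MMP genes on chromosome 9 that spans 402.1 kb and holds 8 genes in RefSeq, 7 of which had values. The other members of the cluster with values were MMP7, MMP20, MMP27, MMP8 and MMP12. MMP12, the macrophage elastase, lies between MMP1 and MMP13 and was at 0.204, 0.275 and 13.7 FPKM in BF-4d, at 0.168, 0.684 and 0.671 in BF-8d, and at 0.0770 or below in every IMF library. It was called in none of the 10 comparisons between groups. MMP8 reached 0.370 FPKM and MMP27 0.112, both in BF-4d, MMP7 reached 0.0341 in BF-0d, and MMP20 was listed at 0 in all libraries. MMP1 thus reached 4982 FPKM in a library while MMP7, MMP20, MMP27 and MMP8, which precede it in the cluster, were at or near 0.

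**Figure D2:**
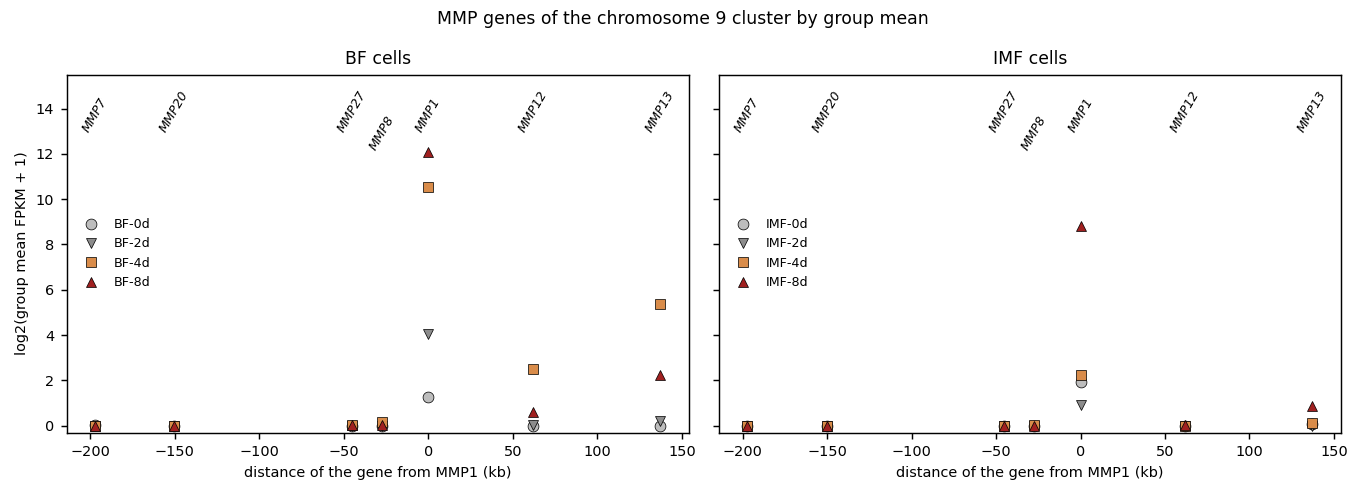
Group mean of each MMP gene in the chromosome 9 cluster as log2(FPKM + 1) on the vertical axis, against its distance from MMP1 in kb on the horizontal axis, for BF cells (left) and IMF cells (right), with 1 symbol per day and 3 libraries per mean. MMP1 stands highest in all 8 groups, and the group means of MMP12 and MMP13 that pass 1 FPKM are those of BF-4d and, for MMP13, BF-8d. The BF-4d means of MMP12 and MMP13 rest on replicate 3.

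MMP2, gelatinase A, which cuts denatured collagen and the type IV collagen of basement membranes, was high in every library. It was at 935, 1045 and 1066 FPKM in BF-0d, at 2623, 2526 and 1365 in BF-2d, at 2168, 2333 and 1818 in BF-4d, and at 2078, 1669 and 1838 in BF-8d. In IMF cells it was at 463, 436 and 517 FPKM in IMF-0d, at 538, 621 and 509 in IMF-2d, at 690, 653 and 604 in IMF-4d, and at 2357, 2207 and 2593 in IMF-8d. BF cells were thus above their day 0 range by day 2, whereas the IMF libraries kept below all BF libraries until day 4 and lay above all BF-8d libraries on day 8.

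The difference of MMP2 was 1.04 (SE 0.18) from BF-0d to BF-2d, a 2.14-fold rise of the mean FPKM, and 1.88 (SE 0.18) from IMF-4d to IMF-8d, a 3.68-fold rise, both called. The first call was lost under quantile normalization (0.75), with those 2 groups fitted alone, and without BF-0d replicate 1 (0.98), BF-2d replicate 1 (0.87) or BF-2d replicate 2 (0.90). Depots differed by -1.11, -1.91 and -1.69 on days 0, 2 and 4, all called, and by 0.36 on day 8. The day 2 call was lost with the compared libraries fitted alone. The change from day 4 to day 8 differed between depots by 2.05 (SE 0.26, IMF minus BF), which was called.

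MMP9, gelatinase B, which is made by leukocytes among other cells, was at or near 0. It was at 4.11 FPKM in BF-4d replicate 3 and at 0.180 or below in the other 23 libraries. It was listed at 0 in all IMF-4d libraries. The largest differences were 0.81 from BF-2d to BF-4d and -0.88 between depots on day 4 (SE 0.34), and none was called. Without both libraries that stood apart they were 0.06 and -0.14.

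MMP11, stromelysin-3, which is opened inside the cell by the protease furin, was at 12.3 to 16.8 FPKM in all 12 BF libraries. In IMF cells its group means were 7.41, 8.07, 10.4 and 16.1 FPKM on days 0, 2, 4 and 8. Its libraries were lower in IMF than in BF cells on days 0, 2 and 4 without overlap and overlapped on day 8. The differences between depots were -0.82, -0.78, -0.28 and 0.12 (SE 0.12), all under the size needed for a call.

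MMP14, a membrane-bound MMP that opens pro-MMP2 at the cell surface, was at 392, 423 and 450 FPKM in BF-0d and at 570, 710 and 712 in BF-2d. It was at 466, 506 and 1022 in BF-4d, with replicate 3 again the highest, and at 599, 478 and 534 in BF-8d. In IMF cells the libraries of successive days did not overlap. They were at 232 to 260 FPKM on day 0, 337 to 387 on day 2, 402 to 441 on day 4 and 621 to 631 on day 8. IMF libraries were below BF libraries on days 0, 2 and 4 and above them on day 8, with differences of -0.77, -0.89, -0.56 and 0.23 (SE 0.19), none of them called. The day 4 difference was -0.21 without both libraries that stood apart.

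TIMP1, a secreted inhibitor of most MMPs, was at 90.5, 94.4 and 103 FPKM in BF-0d, at 106, 223 and 156 in BF-2d, at 154, 242 and 550 in BF-4d, and at 646, 901 and 617 in BF-8d. In IMF cells it was at 119, 131 and 159 FPKM in IMF-0d, at 102, 116 and 115 in IMF-2d, at 118, 118 and 94.5 in IMF-4d, and at 474, 366 and 408 in IMF-8d. BF cells went up over each interval in the mean, with overlap between BF-2d and BF-4d. IMF cells were high on day 8 alone.

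The differences of TIMP1 were 0.68, 0.82 and 1.37 (SE 0.31) over the BF intervals and -0.28, -0.02 and 1.91 over the IMF intervals, and the last of each was called. Without both libraries that stood apart the second BF difference was 0.33 and the third 1.88, which was called. The call from BF-4d to BF-8d was lost with the compared libraries fitted alone, and without BF-4d replicate 1 (0.96), BF-4d replicate 2 (1.29) or BF-8d replicate 2 (1.20). Between depots TIMP1 differed by 0.49, -0.47, -1.31 and -0.78 on days 0, 2, 4 and 8, with day 4 called. The day 4 call was lost without BF-4d replicate 3 (-0.81, alone or with BF-2d replicate 3), without IMF-4d replicate 3 (-1.21), and with the compared libraries fitted alone.

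TIMP3, an inhibitor that binds to the matrix and also blocks ADAM and ADAMTS proteases, followed another course. It was at 181, 217 and 217 FPKM in BF-0d, at 154, 92.4 and 325 in BF-2d, at 280, 437 and 314 in BF-4d, and at 230, 452 and 319 in BF-8d. In IMF cells it was at 336, 355 and 319 FPKM in IMF-0d, at 746, 579 and 839 in IMF-2d, at 409, 420 and 447 in IMF-4d, and at 53.1, 90.3 and 63.2 in IMF-8d. All 3 IMF-2d libraries were above, and all 3 IMF-8d libraries below, every library of the other groups.

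The difference of TIMP3 was -2.64 (SE 0.32) from IMF-4d to IMF-8d and was called. It was 1.08 from IMF-0d to IMF-2d and -0.74 from IMF-2d to IMF-4d, not called although the libraries did not overlap. The change from day 4 to day 8 differed between depots by -2.57 (SE 0.45), which was called. Depots differed by 0.72, 2.09, 0.33 and -2.24 on days 0, 2, 4 and 8, with days 2 and 8 called in opposite directions. The day 2 call was lost with the compared libraries fitted alone. Without both libraries that stood apart the day 2 difference was 2.57 (SE 0.27), the BF difference from day 2 to day 4 was 1.54 and called, against 1.01 and not called with them, and the difference of 1.08 from IMF-0d to IMF-2d was called.

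The balance of the 2 inhibitors turned over between day 0 and day 8 in both depots. The ratio of TIMP3 to TIMP1 FPKM was 2.01 to 2.83 in IMF-0d, 4.98 to 7.30 in IMF-2d, 3.48 to 4.73 in IMF-4d and 0.112 to 0.247 in IMF-8d. In BF cells it was 2.01 to 2.30 in BF-0d, 1.46, 0.414 and 2.08 in BF-2d, 1.83, 1.81 and 0.571 in BF-4d and 0.355 to 0.518 in BF-8d, so that single libraries of days 2 and 4 lay on either side of 1. TIMP1 was the more abundant transcript in all day 8 libraries and TIMP3 in all day 0 libraries.

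The makeup of the MMP transcripts changed with MMP1. MMP2 made up 69.6 to 70.5% of the summed FPKM of the 6 MMPs in BF-0d, MMP14 28.5 to 29.4% and MMP1 0.0963 to 0.103%. In BF-8d MMP1 made up 58.6 to 67.6% and MMP2 24.9 to 31.9%. In IMF-8d MMP2 remained the most abundant, at 65.3 to 72.6%, and MMP1 made up 9.32 to 16.7%. The summed FPKM of the 6 MMPs per summed FPKM of TIMP1 and TIMP3 was 4.77 to 4.94 in BF-0d, 12.4, 10.4 and 4.34 in BF-2d, where replicate 3 is the lowest, 4.68 to 8.07 in BF-4d and 4.59 to 7.88 in BF-8d. The BF-2d values of replicates 1 and 2 were the highest of the series. In IMF cells it was 1.40 to 1.64 on day 0, 0.897 to 1.46 on day 2, 1.88 to 2.17 on day 4 and 6.85 to 7.58 on day 8. These are ratios of transcripts without TIMP2, and they say nothing of proenzyme, active enzyme or bound inhibitor.

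**Figure D3:**
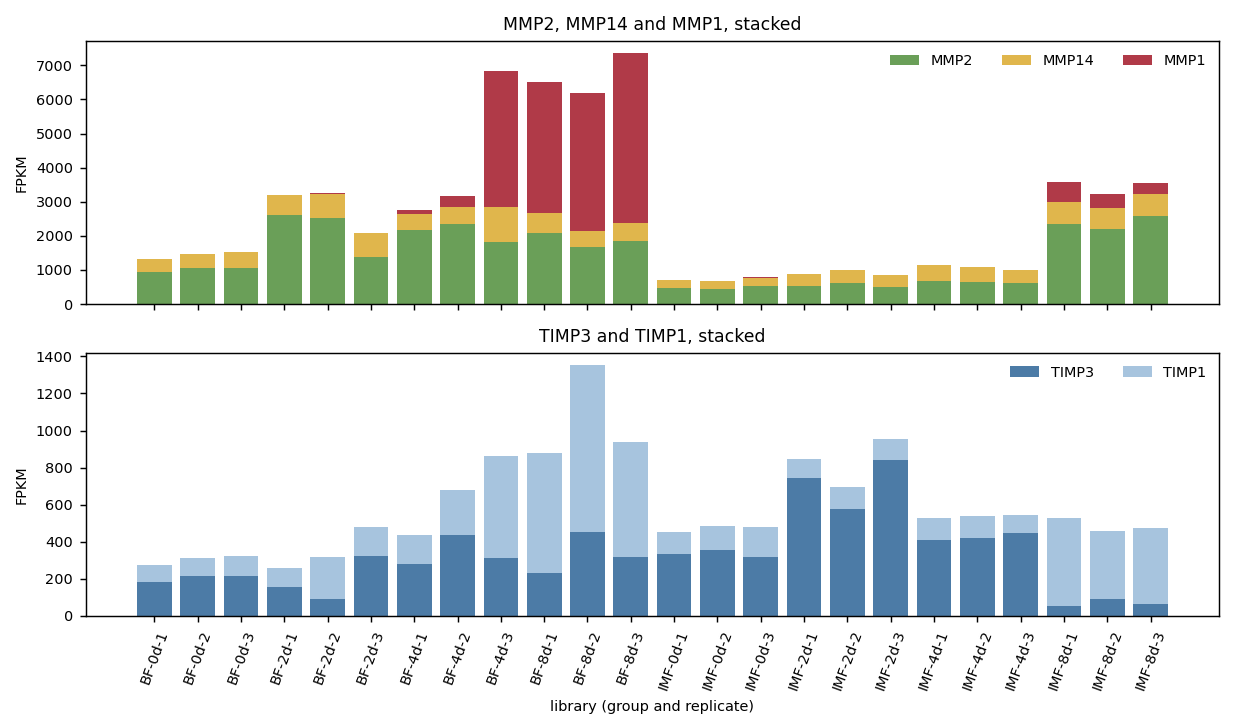
FPKM of MMP2, MMP14 and MMP1 (upper panel, stacked) and of TIMP3 and TIMP1 (lower panel, stacked) on the vertical axes, with 1 bar for each of the 24 libraries. MMP1 fills 58.6 to 67.6% of the 6 MMPs in the BF-8d libraries and 57.3% in BF-4d replicate 3, and TIMP3 is the smaller part of the lower bars in all day 8 libraries.

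Counted over the members, the numbers called in BF cells were 1 of 8 from day 0 to day 2 (MMP2), 2 from day 2 to day 4 (MMP1 and MMP13) and 1 from day 4 to day 8 (TIMP1), where 6.59, 3.35 and 2.93% of all tested genes were called. In IMF cells limma called 0 members over the first and second interval, with 2 members under an unadjusted limit of 0.05 in each. Of all genes 0.787 and 0.0372% were called there, and 21.2 and 8.34% were under the unadjusted limit. From day 4 to day 8 of the IMF cells 4 members were called, 3 of them higher (MMP1, MMP2 and TIMP1) and 1 lower (TIMP3), where 7.25% of all genes were called, 4.16% higher and 3.08% lower. Between depots 1, 2, 4 and 2 members were called on days 0, 2, 4 and 8, against 2.58, 4.74, 11.3 and 6.96% of all genes. The change over an interval differed between depots for 0, 0 and 2 members (MMP2 and TIMP3), against 2.45, 3.06 and 6.39% of all genes. Since the members were chosen by these values, nothing is read from the counts. MMP1, MMP2, MMP13, TIMP1 and TIMP3 were called in at least 1 of the 10 comparisons (20.2% of all genes were), and MMP9, MMP11 and MMP14 in none.

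Separation of the libraries was counted as well. Over the successive intervals the groups did not overlap for 3, 3 and 1 of the 8 members in BF cells, against 40.1, 28.3 and 32.2% of all genes, and for 4, 5 and 8 in IMF cells, against 35.3, 24.2 and 52.9%. Between depots they did not overlap for 6, 5, 7 and 7 members on days 0, 2, 4 and 8, against 38.1, 36.6, 54.6 and 48.9%. The last IMF interval was the one in which every member separated, with TIMP3 lower and the other 7 higher. For MMP9 that separation lay near 0, from 0 in all IMF-4d libraries to between 0.0104 and 0.0830 FPKM in IMF-8d.

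**Figure D4:**
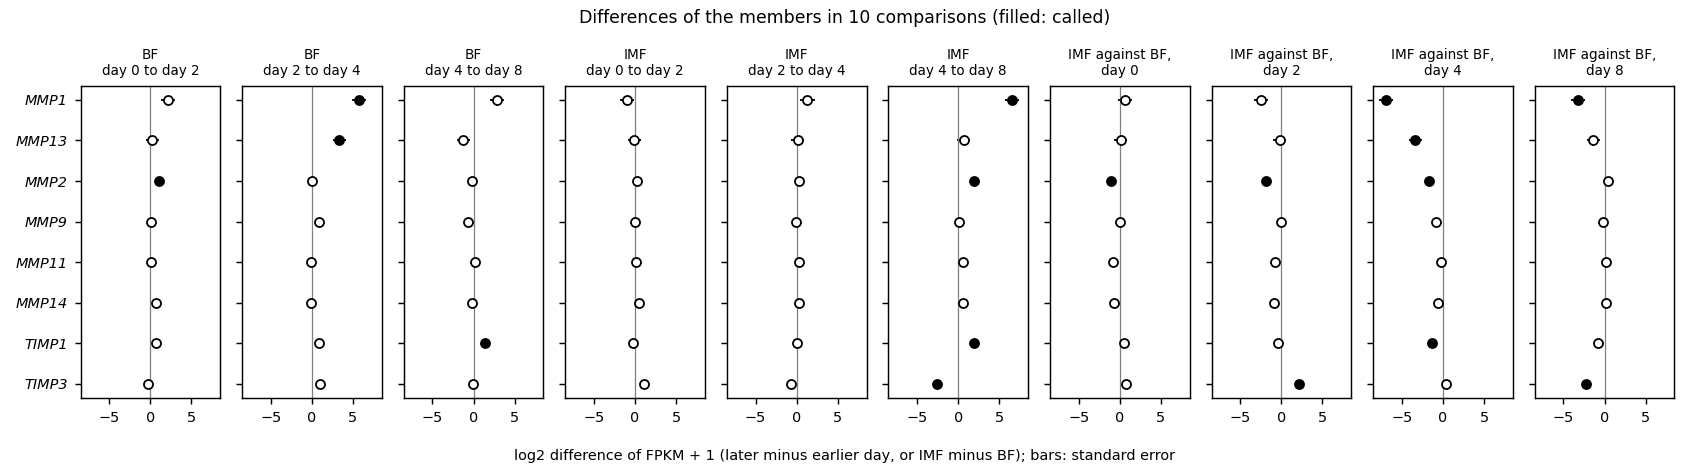
Difference in log2(FPKM + 1) on the horizontal axis for the 8 members (vertical axis) in 10 comparisons, 1 panel each, with bars of 1 SE and filled points for called members. MMP1 has the widest range, from -6.91 to 6.53, and TIMP3 changes side between the depot comparisons of day 2 (2.09) and day 8 (-2.24).

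The genes with the group means closest to those of a member, by the root mean square difference of centred log2 means over the 8 groups, were taken from 10086 genes. They were PTGS2 (1.47), EREG (1.51) and LPL (1.58) for MMP1, CDKN2B (0.34), NQO1 (0.34) and MAST4 (0.38) for MMP13, and NFKB2 (0.25), ZNF219 (0.26) and GAREM1 (0.27) for MMP2. For TIMP1 they were P2RY6 (0.13), RGS16 (0.19) and ALPK3 (0.22), and for TIMP3 RND3 (0.44), EGR3 (0.46) and ID4 (0.55). The group means of MMP9, MMP11 and MMP14 spanned less than 2 log2 units, and no gene was sought for them. The BF-4d mean of MMP13 rests on replicate 3, at 6.89 on the log2 scale against 1.86 and 1.75 in replicates 1 and 2. The genes closest to MMP13 were not sought without that library.

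Other genes of matrix proteolysis were taken from 8 lists, in which 82 genes were tested and 59 were called in at least 1 of the 10 comparisons, where 20.2% of all tested genes were. From IMF-4d to IMF-8d 19 were called higher and 9 lower, against 4.16 and 3.08% of all tested genes, and between depots on day 4, 17 higher and 24 lower in IMF cells, where 6.60 and 4.72% of all tested genes were higher and lower. Their adjusted p-values are those of limma over all genes. The lists were chosen with earlier results of these data known, and genes were named mostly for their large called differences. The p-values therefore describe the named genes and are not independent support. Several comparisons share libraries, so their values are given side by side.

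Among 9 other MMPs, 4 were called in any comparison, against 20.2% of all genes. MMP28, epilysin, was at 4.26 ± 1.04 FPKM in IMF-2d and 0.481 ± 0.618 in BF-2d (SD, n = 3), and was called higher in IMF cells on days 0, 2 and 4 (1.89 on day 2, limma adjusted p = 1.4e-06). MMP16, a membrane-bound MMP, was at 16.9 ± 6.5 FPKM in IMF-2d and 4.99 ± 3.58 in BF-2d, a difference of 1.74 (limma adjusted p = 0.0011) whose call was lost without IMF-2d replicate 1 (1.49). MMP23B fell by 1.32 from BF-2d to BF-4d (limma adjusted p = 5.6e-05), and without the pair of libraries that stood apart its difference was -0.94 and not called. MMP19 rose by 1.09 from IMF-4d to IMF-8d (limma adjusted p = 2.3e-07).

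Among 5 other genes listed as inhibitors, 3 were called in any comparison, against 20.2% of all genes. TFPI2, a secreted inhibitor of plasmin and other serine proteases that also acts on MMPs, was at 74.99 ± 2.68 FPKM in IMF-4d and 1318 ± 120 in IMF-8d, and rose by 4.11 (SE 0.37, limma adjusted p = 8.2e-08). TFPI2 was also called higher from BF-2d to BF-4d. SPOCK3 rose by 1.06 from BF-2d to BF-4d and fell by 1.47 from BF-4d to BF-8d (limma adjusted p = 0.0022 and 0.00016), and SPOCK2 was lower in IMF cells on day 4, by -1.60 (limma adjusted p = 1.8e-05). Not called were RECK, a membrane-anchored MMP inhibitor, with group means of 3.83 to 8.79 FPKM, and TIMP4, with group means of at most 0.196.

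ADAM and ADAMTS proteases are relatives of the MMPs that shed surface proteins or cut proteoglycans. Among 24 of them 14 were called in any comparison, against 20.2% of all genes. ADAMTS4, an aggrecanase, was at 80.4 ± 56.4 FPKM in BF-4d and 1.68 ± 0.13 in IMF-4d, a difference of -4.72 (limma adjusted p = 5.6e-09), and rose by 3.93 from IMF-4d to IMF-8d (limma adjusted p = 1.1e-07). ADAMTS7 rose by 2.58 over the same interval (limma adjusted p = 8.4e-07), and ADAMTS1 by 2.55 from BF-0d to BF-2d (limma adjusted p = 8.0e-06). ADAM8 was lower in IMF cells on day 8, by -2.77 (limma adjusted p = 6.4e-06). ADAM33 and ADAM19 were higher in IMF cells on day 4, by 2.66 and 2.43 (limma adjusted p = 9.2e-08 and 3.8e-06).

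The plasminogen system makes plasmin, which opens several pro-MMPs. Of 8 genes tested 7 were called in any comparison, against 20.2% of all genes. PLAUR, the receptor that holds urokinase at the cell surface, was at 451 ± 259 FPKM in BF-4d and 19.9 ± 1.45 in IMF-4d, a difference of -4.29 (limma adjusted p = 4.0e-08). PLAU, urokinase itself, was higher in IMF cells on that day, by 1.83 (limma adjusted p = 8.4e-06), and PLAT, tissue plasminogen activator, on day 8, by 2.60 (limma adjusted p = 1.0e-09). S100A10, which with annexin A2 binds plasminogen at the cell surface, was higher in IMF cells on day 4, by 1.74 (limma adjusted p = 5.0e-06). The inhibitor SERPINB2 was lower in IMF cells on day 8, by -3.88 (limma adjusted p = 4.7e-08). SERPINE2 was higher in IMF cells on day 2, by 1.79 (limma adjusted p = 3.6e-05), and lower on day 8, by -1.17 (limma adjusted p = 0.00099).

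Among 11 cathepsins and cystatins, the lysosomal proteases and their inhibitors, 8 were called in any comparison, against 20.2% of all genes. CTSL, cathepsin L, was at 34.8 ± 3.3 FPKM in IMF-4d and 248 ± 22 in IMF-8d and rose by 2.80 (limma adjusted p = 1.7e-08). CTSH rose by 2.42 and CTSZ by 1.56 over that interval (limma adjusted p = 3.7e-08 and 3.6e-06). CTSC rose by 2.17 from BF-0d to BF-2d (limma adjusted p = 2.3e-05). CTSB and CTSV were higher in IMF cells on day 8, by 1.69 and 1.35 (limma adjusted p = 6.3e-06 and 1.9e-08).

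All 5 tested activators and surface partners were called in any comparison, against 20.2% of all genes. LCN2, lipocalin 2, which binds MMP9, was at 12.7 ± 3.2 FPKM in BF-8d and 201 ± 28 in IMF-8d, a difference of 3.90 (limma adjusted p = 3.7e-08). FURIN, the protease that opens MMP11 and MMP14, was lower in IMF cells on day 4, by -2.46 (limma adjusted p = 5.6e-10), as were CD44 by -1.64 and PCSK5 by -1.62 (limma adjusted p = 9.9e-06 and 0.00013). PCSK6 was higher in IMF cells on day 8, by 2.06 (limma adjusted p = 6.3e-08).

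Among 12 upstream regulators of MMP genes, which are cytokines, transcription factors and NFKBIA, an inhibitor of NF-kB, 11 were called in at least 1 comparison, against 20.2% of all genes, and 8 were lower in IMF than in BF cells on day 4 with 0 higher, against 4.72% of all genes lower. The listed IL1B, IL1RN, TNF, JUN and JUND were not matched and are not analysed here. IL1A, interleukin 1 alpha, was at 38.7, 67.6 and 677 FPKM in BF-4d and 0.251 ± 0.219 in IMF-4d, a difference of -6.63 (limma adjusted p = 2.8e-07). Under the alternatives run that difference lay between -8.60 and -5.40 and stayed called. IL1A rose by 5.89 and IL6, interleukin 6, by 4.89 from IMF-4d to IMF-8d (limma adjusted p = 2.1e-06 and 1.4e-06). IL6 also rose by 5.61 from BF-0d to BF-2d (limma adjusted p = 4.4e-07). FOSL1, a subunit of the AP-1 factor, was lower in IMF cells on day 4 by -2.08, NFKBIA by -2.60 and NFKB1 by -1.53 (limma adjusted p = 2.0e-05, 1.3e-06 and 1.3e-06), while FOS rose by 1.79 from BF-0d to BF-2d (limma adjusted p = 1.6e-07). The IL1A level of BF-4d replicate 3 moved with the MMP1, MMP13 and MMP9 levels of that library, and its part in them was not tested.

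Of 8 matrix proteins that MMPs cut, 7 were called on day 4 between depots, 5 higher and 2 lower in IMF cells. Of all tested genes 11.3% were called in that comparison, 6.60% higher and 4.72% lower. COL1A1, the main chain of type I collagen, was at 676 ± 253 FPKM in BF-4d and 4364 ± 192 in IMF-4d, a difference of 2.75 (limma adjusted p = 1.2e-07). COL1A2, SPARC and FN1 were also higher there, COL1A2 by 1.73, SPARC by 1.71 and FN1 by 1.61 (limma adjusted p = 7.5e-07, 1.2e-07 and 3.9e-05). COL4A1, of basement membrane collagen, was lower by -2.01 (limma adjusted p = 1.2e-05). ELN, elastin, fell by 2.39 from BF-0d to BF-2d and fell by 2.92 from BF-2d to BF-4d (limma adjusted p = 4.6e-05 and 2.3e-05). Under the alternatives run the difference from BF-2d to BF-4d lay between -3.60 and -2.01.

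**Figure D5:**
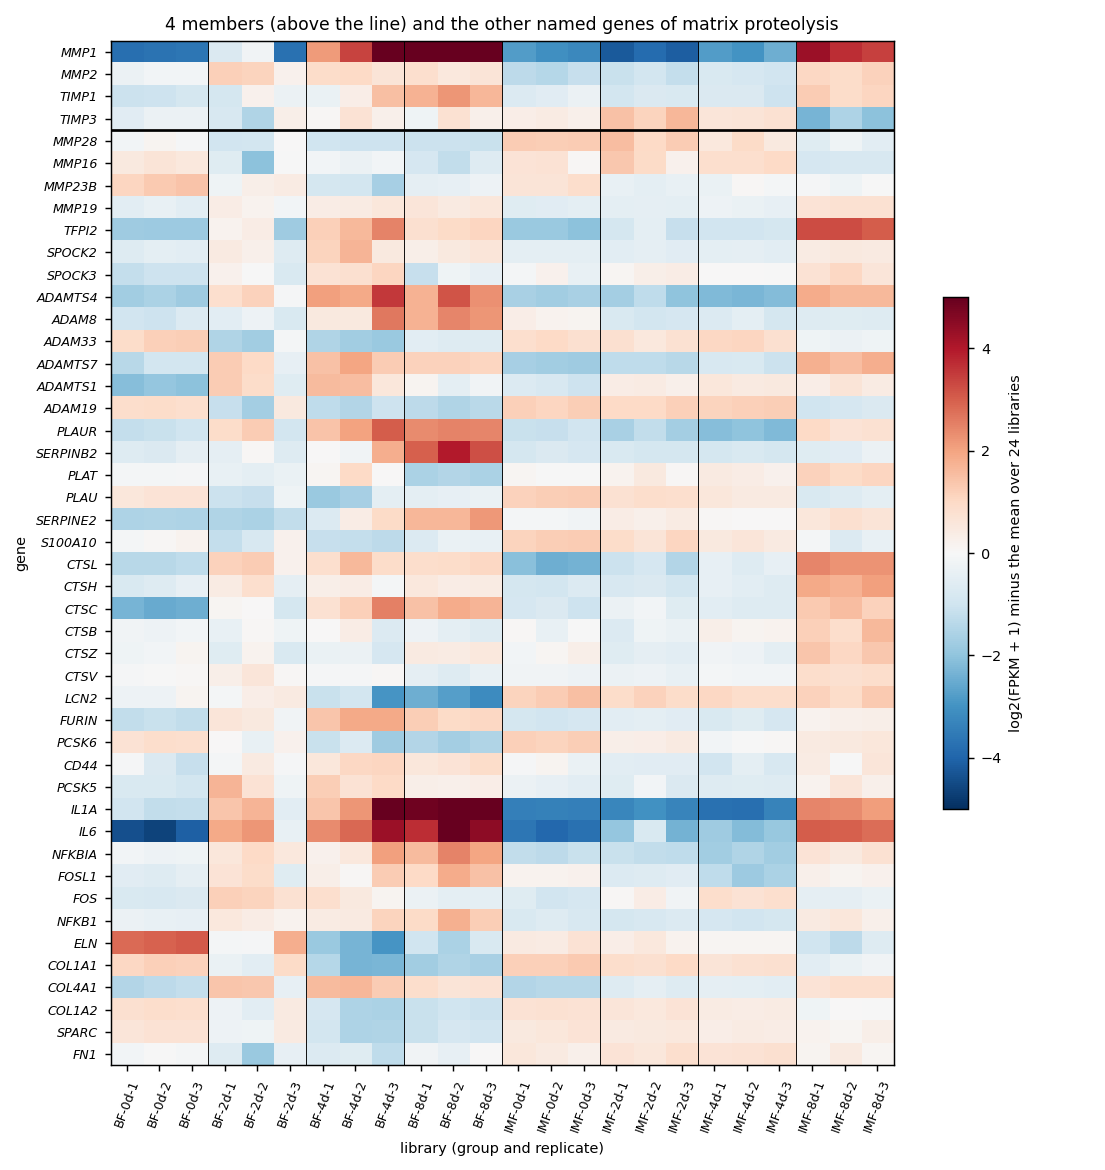
Level of 4 members and 42 other named genes (vertical axis) in the 24 libraries (horizontal axis), as log2(FPKM + 1) minus the mean of the gene over all libraries, red above and blue below, with colours saturated at the ends of the scale. BF-4d replicate 3 resembles BF-8d in MMP1 and IL1A, and BF-2d replicate 3 resembles BF-0d in MMP1.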

How the data were processed

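Polyadenylated RNA of 24 libraries (2 depots, 4 days, 3 replicates) was sequenced as paired reads. Per the labels and the study's methods, the authors aligned reads with HISAT2 to Sscrofa11.1 and computed the deposited FPKM values with StringTie 1.3.4d. FPKM divides by gene length and mapped fragments, so read depth is lost. Of ratios between low values, 1.87 to 4.71% fell at the most common step, so no whole reads were recovered, and the reads behind a value cannot be given from these files. The study's sequencing totals were not used here. The authors' DESeq2 1.6.3 test needs counts and was not used. The total FPKM of a library was 307967 to 385768, and 9985 to 10858 genes reached 1 FPKM. An exact 0 can be a failed estimate, since 4 of the 4503 genes whose median passed 10 FPKM had one in some library.

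Genes with a summed FPKM above 1 were tested as log2(FPKM + 1), a scale that understates changes of low genes, with limma 3.58.1 in R 4.3.3 (1 mean per group, eBayes with trend and robust) and Benjamini-Hochberg adjustment over 16135 genes, at the study's thresholds. In simulated data for IMF day 4 to day 8, over 16135 genes, 91 of 100 genes changed by 1.5 and 100 of 100 changed by 3 were called, and 1 of 15935 unchanged genes. Only genes of higher mean level were changed there, with independent normal noise and no library that stood apart. Changes in low genes such as MMP9 and MMP13, and groups with such a library, were not covered.

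The replicate numbers were checked for pairing. Over 84 pairs of libraries with the same number, the correlation of deviations from the group means was -0.45 to 0.46, 9 were over 0.1, and 10 of 24 libraries correlated best with their own number, so the numbers were not treated as pairs. The p-values measure the spread between samples, which may be technical, since the labels do not say what a replicate is.

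The members and gene lists were chosen with earlier results of these data known. A listed gene is not reported here and was left out of the counts. The genes named beside the members were at most 6 per list, those with the largest differences among genes called in any of the 10 comparisons with a group mean of at least 1 FPKM and libraries that did not overlap, with TIMP4, RECK and MMP12 named in addition. Genes like a member were sought where its group means spanned at least 2 log2 units. Alternatives were a pseudocount of 0.1, other filters, 2 rescalings, a replicate block, fits of the compared libraries alone, and each library left out. Leaving out BF-2d replicate 3 and BF-4d replicate 3 together was added after seeing the data. Sequences and positions were read with Python 3.11.15 and pysam 0.24.0.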

Additional observations from a re-analysis of the deposited data

Results flagged for a closer look

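The change from day 4 to day 8 differed between the depots for 2 members, by the interaction contrast of limma (IMF change minus BF change). For MMP2 the contrast was 2.05, from a difference of 1.88 in IMF cells and -0.18 in BF cells. For TIMP3 it was -2.57, from -2.64 in IMF cells and -0.07 in BF cells. Both contrasts were called, where 6.39% of all genes were. Since the members were listed with these patterns in view, the contrasts are a description. Under all alternatives run, leaving out each library included, the MMP2 contrast stayed between 1.97 and 2.15 and the TIMP3 contrast between -2.81 and -2.33, and both stayed called.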

How the results depend on the processing

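The number of members called was within 1.5 times its value under the alternatives not named here. With the compared libraries fitted alone it was 0 in the 3 BF intervals and between depots on day 2, and 2 from IMF-0d to IMF-2d and between depots on day 4. The calls given for MMP28 and MMP16 on day 2, MMP23B and ELN from BF-2d to BF-4d, SPOCK3 from BF-4d to BF-8d and ADAMTS1 were lost there too. Each gene named beside the members was checked in 1 comparison, that of its largest difference. Calls given for it in other comparisons were not checked under the alternatives. The number of members called was 0 from BF-0d to BF-2d under quantile normalization and 1 from BF-2d to BF-4d without a filter on low values. With each library left out in turn it was 0 to 2 in the first BF interval, 1 to 3 in the second and 0 to 2 in the third, 0 to 1 in the first IMF interval, 2 to 3, 3 to 5 and 1 to 3 between depots on days 2, 4 and 8, and 2 to 3 for the interaction. Without BF-2d replicate 3 and BF-4d replicate 3 together it was 2 in the first and 2 in the third BF interval, 1 in the first IMF interval, and 4 for the interaction in at least 1 interval against 2 with all libraries (MMP1 and MMP13 were added). The difference of MMP13 from BF-4d to BF-8d turned from -1.27 to 0.43 without BF-4d replicate 3, alone or with the other, and lay between -2.15 and 0.43 over the single leave-outs. The replicate block left the number of members called as it was in all 10 comparisons (4 from IMF-4d to IMF-8d, for example) and changed no other call. MMP9 was called in 1 comparison with a pseudocount of 0.1, and without BF-4d replicate 1 or 2, MMP14 in 1 comparison under median ratio scaling, and TIMP1 in 4 comparisons, against 3, under quantile normalization. The other genes of matrix proteolysis called in any comparison numbered 57 to 69 over all alternatives. The cause of these changes was not tested. The reads behind each value are not in the files used, and 3 libraries per group and the unlabelled source of replicates limit every comparison. TIMP2 and MMP3 are missing from the sums, and transcript levels do not measure enzyme activity.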
